A study of Mus musculus with 19 samples.

Results

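A set of 9 genes of the neural extracellular matrix (Ncan, Bcan, Vcan, Acan, Hapln1, Hapln4, Tnr, Tnc and Reln) was taken by name from tables of 14459 genes, and all 9 were measured and passed the filter on low counts in every test. The slices were cut acutely through the hippocampus of males on a C57BL/6 background at an age of 28 to 35 days. Slices from Fmr1 KO mice, which lack the RNA-binding protein FMRP, were set against slices from wild-type (WT) littermates, with no further treatment of either genotype. Each library came from a pool of 8 to 10 slices of 400 µm taken from 6 to 8 mice, held at 30 °C for 3 to 4 h and then placed in cycloheximide at 100 µg/ml, which arrests ribosomes. The protocol describes removal of CA3 to enrich CA1, whereas the tissue is named hippocampal-cortical slices. Cytoplasmic RNA and ribosome footprints (the mRNA fragments that ribosomes protect from nuclease) were made from the same lysates, with 3 KO and 4 WT libraries of each kind. Because each library pooled mice, the spread between libraries is a spread between pools and not between animals.

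Levels are given in TPM, a transcript abundance scaled for gene length and library size. A change is given as the log2 fold change of KO over WT with its standard error, from edgeR's quasi-likelihood test over all genes, and a gene is said to have risen or fallen where its Benjamini-Hochberg adjusted p was under 0.05. Scaling sets the typical gene near 0, so each change is relative to other genes of the same assay. An RNA library held between 4.97 and 9.96 M estimated counts, and a footprint library between 15.57 and 22.71 M. The 9 genes had between 125 and 9316 estimated counts per RNA library and between 398 and 14827 per footprint library. Fmr1 itself fell from 44.4 ± 1.53 TPM (SD, n = 4) to 4.81 ± 0.222 TPM (n = 3) in footprints and from 17.3 ± 1.46 TPM to 4.42 ± 0.771 TPM in RNA, so that the KO libraries were all under the lowest WT library in each assay, as labelled.

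The perineuronal net is a dense form of the brain's extracellular matrix that wraps the soma and proximal dendrites of certain neurons, most of all fast-spiking parvalbumin interneurons and, in the hippocampus, CA2 pyramidal cells. Its backbone is the polysaccharide hyaluronan, to which the lecticans (chondroitin sulfate proteoglycans) bind through one end, held there by small link proteins, while tenascin-R crosslinks the other ends of the lecticans. Neurons make aggrecan and much of the link protein, whereas astrocytes and oligodendrocyte lineage cells make much of the neurocan, brevican, versican and tenascin. Reelin is a large secreted matrix glycoprotein, made by Cajal-Retzius cells and by interneurons, that signals to neurons through lipoprotein receptors.

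The genes that code for a link protein lie next to the genes of lecticans in the mouse genome (GRCm38.p6, RefSeq annotation). Hapln1 (chromosome 13, 89540529 to 89611832) and Vcan (89655309 to 89743027) are 43476 bases apart with no protein-coding gene between them. Hapln4 (chromosome 8, 70083529 to 70090862) and Ncan (70093085 to 70120863) are 2222 bases apart, again with no protein-coding gene between. Bcan (chromosome 3, 87987531 to 88002175) and Acan (chromosome 7, 79053226 to 79115099) have Hapln2 and Hapln3 as their neighbours at 18382 and 1927 bases. Tnr lies on chromosome 1 (159523729 to 159931729), Tnc on chromosome 4 (63959785 to 64047015) and Reln on chromosome 5 (21884454 to 22344705).

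RefSeq promoter windows (GRCm38.p6, 300 bases, 250 before to 50 after a transcript start) were matched for 8 of the 9 genes, with a pair of starts for Tnc, giving 9 windows. The 250 bases upstream of the start are shown for Hapln1, its neighbour Vcan, Tnr and Reln, because the footprints of these 4 genes fell in KO under the test and under every alternative tried. Each is written 5′ to 3′ on the gene's strand, with the GC box (GGGCGG on either strand) in capitals. For Hapln1, Tnr and Vcan another annotated start lies upstream of the start used, so these windows lie partly (Hapln1, Tnr) or wholly (Vcan) within the gene's annotated span.
Hapln1, chr13:89540386-89540635 (plus strand): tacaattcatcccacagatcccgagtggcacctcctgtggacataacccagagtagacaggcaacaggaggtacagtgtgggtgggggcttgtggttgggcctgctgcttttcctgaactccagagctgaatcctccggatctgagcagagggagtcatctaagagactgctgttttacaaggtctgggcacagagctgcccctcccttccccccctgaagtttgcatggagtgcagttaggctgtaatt
Vcan, chr13:89742513-89742762 (minus strand): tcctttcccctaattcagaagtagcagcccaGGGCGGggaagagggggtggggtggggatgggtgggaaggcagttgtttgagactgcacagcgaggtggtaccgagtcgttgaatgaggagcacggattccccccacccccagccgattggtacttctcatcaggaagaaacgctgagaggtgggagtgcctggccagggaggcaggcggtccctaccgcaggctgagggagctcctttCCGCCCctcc
Tnr, chr1:159523519-159523768 (plus strand): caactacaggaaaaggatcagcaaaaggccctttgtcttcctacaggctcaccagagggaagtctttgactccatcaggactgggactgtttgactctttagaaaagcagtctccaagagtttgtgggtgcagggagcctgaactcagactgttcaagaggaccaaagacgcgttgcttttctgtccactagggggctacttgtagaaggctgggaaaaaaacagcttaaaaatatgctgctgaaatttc
Reln, chr5:22344706-22344955 (minus strand): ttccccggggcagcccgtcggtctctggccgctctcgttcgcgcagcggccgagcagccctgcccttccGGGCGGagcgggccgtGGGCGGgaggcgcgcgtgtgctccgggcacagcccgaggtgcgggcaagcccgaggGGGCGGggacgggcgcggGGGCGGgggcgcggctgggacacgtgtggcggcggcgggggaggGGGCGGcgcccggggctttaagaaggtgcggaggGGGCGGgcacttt
These 4 promoters had little in common in base composition. The Reln window was 80.7% G and C with 47 CpG dinucleotides and 6 GC boxes, and more CpG than 98.6% of the 32851 promoter windows in the table. The Tnr window was 48.0% G and C and the Hapln1 window 54.3%, each with 3 CpG and no GC box, and the Vcan window lay between with 12 CpG and 2 GC boxes. Over all promoter windows the median was 7 CpG (quartiles 3 and 20), and 35.7% held a GC box. The other windows held 31 CpG and 3 GC boxes (Acan), 24 and 1 (Bcan) and 9 and 1 (Ncan), and those of Tnc 16 and 10 CpG with 1 GC box each. A TATAAA motif (either strand) was in the windows of Ncan and Tnc, against 13.6% of all promoters, and in none of the 4 shown. A CCAAT motif (either strand) was in those of Vcan, Acan and Bcan, against 37.4% of all. A GGGCGG run can overlap another at its ends, and overlapping matches were each counted.

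In WT slices the lecticans brevican and neurocan dominated the measured matrix RNA. Bcan had 357 ± 15.2 TPM (SD, n = 4) and Ncan 283 ± 12.1 TPM, above 96.6% and 95.6% of all genes, while Vcan had 8.04 ± 0.919 TPM and Acan 5.33 ± 0.388 TPM. Together Bcan and Ncan made up 98.0% ± 0.0492 of the RNA TPM of the 4 lecticans and 94.4% ± 0.355 of their footprint TPM. Between these extremes came Tnr at 113 ± 3.99, Hapln4 at 89.7 ± 8.09, Hapln1 at 51.3 ± 3.90, Reln at 34.6 ± 2.21 and Tnc at 11.1 ± 0.409 TPM. No neighbours in this RNA order overlapped between their WT libraries. In footprints Hapln4, Tnr and Hapln1 could not be ordered, since their WT ranges overlapped at 70.4 ± 2.86, 69.0 ± 2.96 and 67.8 ± 1.23 TPM. Vcan stood above Tnc in footprints (18.6 ± 0.927 against 7.00 ± 0.593 TPM) and below it in RNA.

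The footprint level per RNA level therefore differed between the genes. The ratio of footprint TPM to RNA TPM was taken between libraries of the same genotype and replicate number. In WT it was 2.34 ± 0.267 for Vcan, higher than for 93.7% of genes, and 1.33 ± 0.0853 for Hapln1. The other genes had mean ratios from 0.590 ± 0.0421 (Bcan) to 0.866 ± 0.0934 (Acan). WT ratios of Vcan and Hapln1 overlapped neither each other nor those of any of the other 7 genes, whereas the 7 overlapped with their neighbours in the order. How many ribosomes each mRNA carries and how fast they move cannot be told apart in this ratio.

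In KO slices the footprints of 6 of the 9 genes fell and none rose, while the RNA of only 1 fell. The 6 were Vcan, Acan, Hapln1, Hapln4, Tnr and Reln, with log2 fold changes between -0.30 and -0.20, and the 3 that did not pass were Ncan, Bcan and Tnc. Over all 14438 genes tested in footprints, 10.4% fell and 8.15% rose. The median change of the 9 genes was -0.21, against -0.0001 over all genes. Summed over the 9 genes, footprints were 632 to 664 TPM in the WT libraries and 575 to 619 TPM in the KO libraries. For 5 genes, all of the 6 but Hapln4, the KO footprint libraries were all below the WT libraries, which was so for 15.6% of all genes.

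**Figure D1:**
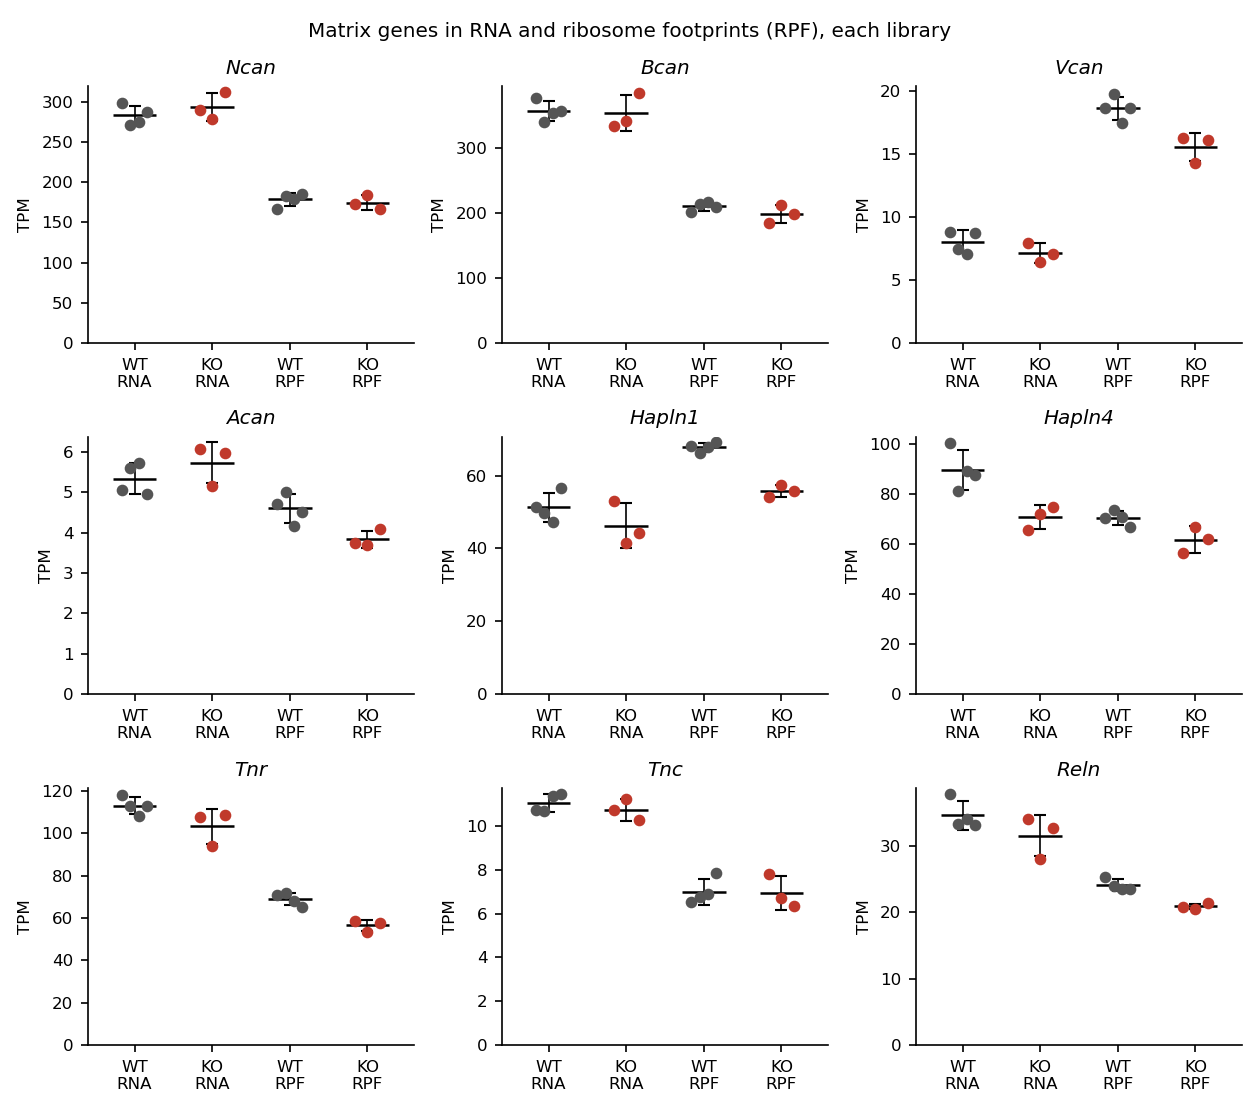
TPM of each gene in each library, RNA and ribosome footprints (RPF), WT in grey (4 libraries) and KO in red (3 libraries), with the mean and SD as bars and each panel's axis starting at 0. Footprints of Hapln1 separate most clearly, at 66.2 to 69.2 TPM in WT and 54.2 to 57.3 TPM in KO, whereas the Ncan and Tnc libraries of the genotypes intermix.

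In RNA, 2.77% of 13877 genes fell and 2.11% rose. Of the 9 genes only Hapln4 fell and none rose. The other 8 RNA changes lay between -0.17 and 0.10, 6 of them below 0, and the median of the 9 was -0.13 against -0.005 over all genes. Hapln4 was also the only one of the 9 whose KO RNA libraries all lay below the WT libraries, against 10.3% of all genes.

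**Figure D2:**
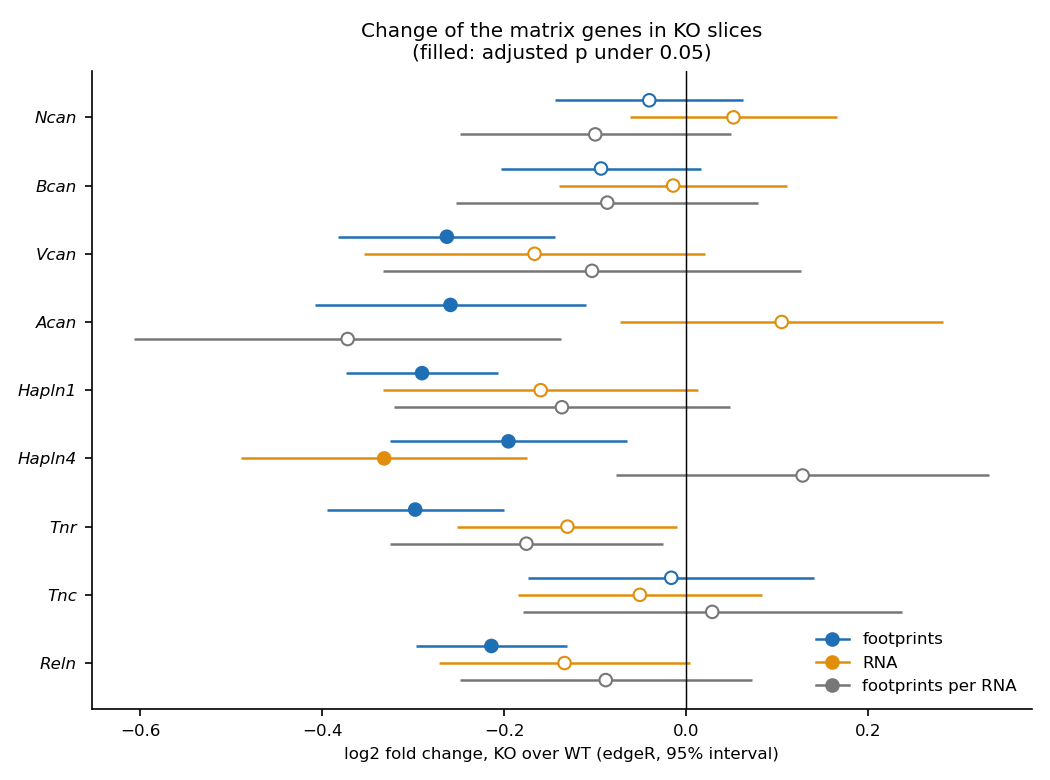
Log2 fold change of KO over WT with its 95% interval from edgeR for each gene, in footprints (blue), RNA (orange) and footprints per RNA (grey). Filled points have an adjusted p under 0.05: 6 in footprints, 1 (Hapln4) in RNA and 0 in footprints per RNA.

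The lecticans split by abundance, with the footprints of the scarce pair lower in KO and those of the abundant pair not past the threshold. Versican, which in brain is made largely by glia, had 18.6, 19.7, 17.5 and 18.7 footprint TPM in the WT libraries and 16.3, 14.3 and 16.2 in the KO libraries. All KO libraries were below all WT libraries, and Vcan footprints changed by -0.26 ± 0.05 (adjusted p = 0.00722), so that they fell by 16.7%. Its RNA was 8.86, 7.47, 7.04 and 8.78 TPM in WT and 7.97, 6.43 and 7.06 in KO, overlapping ranges with a change of -0.17 ± 0.09 (adjusted p = 0.307).

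Aggrecan, the lectican most used as a marker of mature nets, fell in footprints while its mean RNA was higher in KO. Acan footprints were 4.71, 5.00, 4.17 and 4.51 TPM in WT and 3.75, 3.69 and 4.08 in KO. The groups did not overlap, though the lowest WT and the highest KO library were close, and the change was -0.26 ± 0.07 (adjusted p = 0.0216). Its RNA was 5.06, 5.60, 5.73 and 4.94 TPM in WT and 6.07, 5.15 and 5.98 in KO, a change of 0.10 ± 0.08 that did not pass (adjusted p = 0.539). The footprint call rested on few libraries: the adjusted p was 0.0774 without KO replicate 1 and 0.0680 without KO replicate 2. These levels are the lowest of the 9 genes, a few-fold above the lowest TPM in the tables, which lay between 0.880 and 1.00 in the 14 libraries.

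Brevican and neurocan, the abundant lecticans of these slices, had overlapping genotypes in both assays. Bcan footprints were 201, 214, 216 and 210 TPM in WT and 184, 212 and 198 in KO, a change of -0.09 ± 0.05 (adjusted p = 0.237, 95% interval -0.20 to 0.02). Ncan footprints were 167, 183, 179 and 185 TPM in WT and 173, 185 and 166 in KO, a change of -0.04 ± 0.05 (adjusted p = 0.647, interval -0.14 to 0.06). These intervals do not hold the fitted changes of Vcan and Acan, but the difference between genes was not tested. In RNA, Bcan was at 340 to 377 TPM in WT and 334 to 385 in KO and Ncan at 271 to 298 and 279 to 312, with changes of -0.01 ± 0.06 and 0.05 ± 0.05. The share of Bcan and Ncan in lectican footprints was 95.0% ± 0.544 in KO against 94.4% ± 0.355 in WT, within overlapping ranges (94.7 to 95.7% and 94.0 to 94.8%).

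Both link proteins fell in footprints, and both had lower mean RNA in KO, which passed for Hapln4; the difference between them was not tested. Hapln1, the link protein of cartilage and of nets, had 68.1, 66.2, 67.8 and 69.2 footprint TPM in WT and 54.2, 57.3 and 55.8 in KO. It had the smallest p of the 9 genes in footprints, with a wide gap between genotypes and a change of -0.29 ± 0.04 (adjusted p = 9.33e-04), so that footprints fell by 18.2%. Its RNA was 51.3, 49.8, 47.3 and 56.6 TPM in WT and 53.1, 41.4 and 44.2 in KO, where KO replicate 1 lay among the WT libraries and the change of -0.16 ± 0.08 did not pass (adjusted p = 0.285).

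Hapln4, the brain link protein that stabilises brevican at synapses, was lower in both assays. Its RNA was 101, 81.2, 89.2 and 87.7 TPM in WT and 65.5, 72.2 and 74.9 in KO, groups that did not overlap, with a change of -0.33 ± 0.07 (adjusted p = 0.0206). Its footprints were 70.4, 73.6, 70.8 and 66.7 TPM in WT and 56.4, 67.0 and 61.9 in KO, where KO replicate 2 was above WT replicate 4 and the change was -0.20 ± 0.06 (adjusted p = 0.0407). Both calls depended on single libraries. In RNA the adjusted p was 0.0701 without KO replicate 1, 0.0545 without KO replicate 2 and 0.0598 without WT replicate 1. In footprints it was 0.152 without KO replicate 1, with a change of -0.12. Without KO replicate 3 or WT replicates 1, 2 or 3 the footprint p was 0.0686, 0.0720, 0.0969 and 0.0655.

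Link proteins and the neighbouring lecticans did not always move alike. Hapln1 and Vcan both fell in footprints by similar amounts, -0.29 and -0.26, and their RNA changes, -0.16 ± 0.08 and -0.17 ± 0.09, differed by less than their errors and did not pass. At the other locus Hapln4 fell in both assays, whereas Ncan, 2222 bases away, changed by -0.04 in footprints and 0.05 in RNA. Hapln2, the link protein of myelinated axon nodes and neighbour of Bcan, fell in footprints by 0.29 ± 0.08 (adjusted p = 0.0200) and not in RNA (0.07 ± 0.10, adjusted p = 0.821). That Hapln2 call was lost without KO replicate 2 (adjusted p = 0.0695) or KO replicate 3 (0.0674), and with DESeq2 (0.0612). Hapln3, next to Acan, passed in neither assay, with -0.13 ± 0.11 in footprints and -0.61 ± 0.16 in RNA (adjusted p = 0.669 and 0.110), at only 2.54 to 4.68 TPM. Its RNA decrease did pass with limma on log2(TPM + 1) or log2(TPM + 0.1) (adjusted p = 0.0455 and 0.0471), with voom (0.0343) and with the length trend removed (0.0271).

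Of the tenascins, tenascin-R fell in footprints and tenascin-C did not. Tenascin-R, which oligodendrocyte lineage cells and interneurons make and which crosslinks lecticans in nets, had 70.9, 71.9, 67.9 and 65.4 footprint TPM in WT and 58.3, 53.4 and 57.5 in KO. The genotypes were separate, and the change of -0.30 ± 0.04 (adjusted p = 0.00173), by which footprints fell by 18.7%, was the largest of the 9 genes. Tnr RNA was 118, 113, 108 and 113 TPM in WT and 108, 93.8 and 109 in KO, where only KO replicate 2 lay clearly below, with a change of -0.13 ± 0.06 (unadjusted p = 0.0358, adjusted p = 0.204, edgeR). Tenascin-C, a glial protein of the developing matrix, had 6.51 to 7.86 footprint TPM in WT and 6.32 to 7.81 in KO, and 10.7 to 11.5 RNA TPM in WT and 10.2 to 11.2 in KO. Its changes were -0.02 ± 0.07 in footprints (adjusted p = 0.930, interval -0.17 to 0.14) and -0.05 ± 0.06 in RNA. The ratio of Tnr to Tnc footprint TPM was 9.93 ± 1.17 in WT and 8.17 ± 0.832 in KO, with overlapping ranges.

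Reelin footprints also fell. Reln had 25.3, 24.0, 23.5 and 23.5 footprint TPM in WT and 20.8, 20.5 and 21.3 in KO, a tight pair of groups with a change of -0.21 ± 0.04 (adjusted p = 0.00369), so that they fell by 13.8%. Its RNA was 37.8, 33.3, 34.1 and 33.0 TPM in WT and 34.0, 28.0 and 32.6 in KO, overlapping, with a change of -0.13 ± 0.06 (adjusted p = 0.258).

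No gene of the 9 passed in the test of footprints per RNA, the interaction of assay and genotype over the 14 libraries. Only 3 of 14435 genes were lower (0.0208%) and 2 higher (0.0139%) in that test, so it made few calls for any gene. At an unadjusted p under 0.05 in edgeR there were 2 of the 9 genes, Acan and Tnr, and 1564 over all genes, and no alternative tool or setting called any of the 9. Acan had ratios of 0.930, 0.894, 0.728 and 0.912 in WT and 0.617, 0.716 and 0.683 in KO, with a change of -0.37 ± 0.11 (adjusted p = 0.177, interval -0.61 to -0.14). Tnr had ratios of 0.600, 0.637, 0.626 and 0.579 in WT and 0.542, 0.570 and 0.530 in KO, with a change of -0.18 ± 0.07 (adjusted p = 0.357). These were the only 2 of the 9 genes whose KO ratios all lay below the WT ratios, which was so for 7.01% of all genes. Hapln4 went the other way, with 0.699 to 0.907 in WT and 0.826 to 0.928 in KO and a change of 0.13 ± 0.10 (adjusted p = 0.712). For Vcan, Hapln1 and Reln the changes were -0.10 ± 0.11, -0.14 ± 0.09 and -0.09 ± 0.08, so for these genes footprints were lower without a measured difference between the footprint and the RNA change. The median over the 9 genes was -0.10 against -0.01 over all genes.

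**Figure D3:**
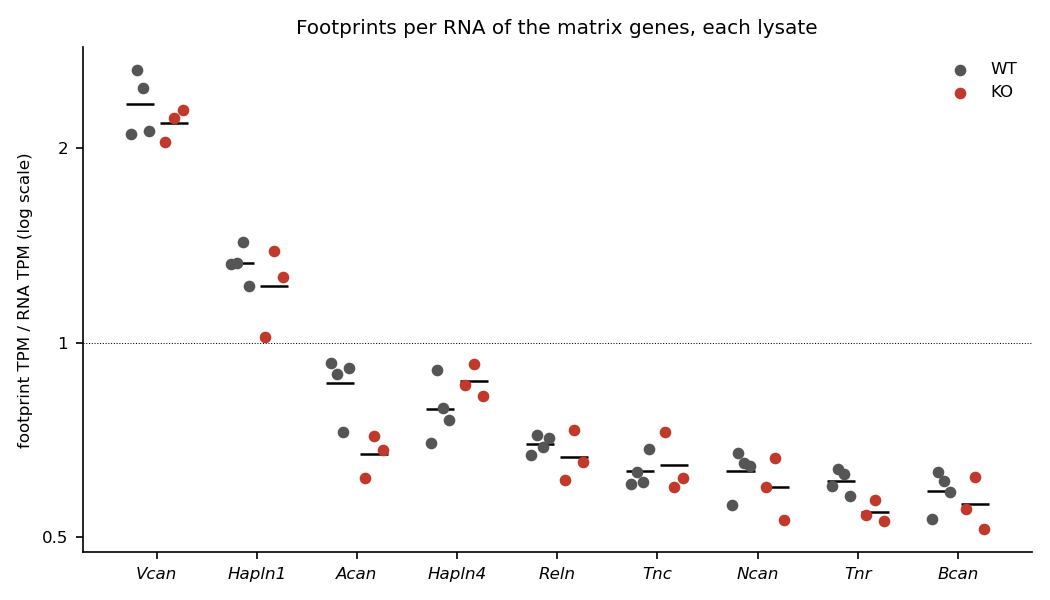
Ratio of footprint TPM to RNA TPM (log axis) for each pair of libraries of the same genotype and replicate number. WT is in grey and KO in red, genes are ordered by the WT mean, and the group mean is a line. Vcan and Hapln1 sit above 1 in every pair. Acan and Tnr are the only genes whose KO ratios all lie below the WT ratios.

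Gene length moved with the footprint change over all genes, and most of the 9 genes are long. The length term of the tables puts Reln at 7.66, Acan at 4.71, Tnc at 4.45, Vcan at 3.92, Tnr at 2.98, Ncan at 2.78 and Bcan at 1.88 times the median gene. Hapln4 and Hapln1 are shorter than the median gene, at 0.849 and 0.751. In the longest of 20 length bins, where Vcan, Acan, Tnc and Reln fall, the median footprint change was -0.06 and 22.0% of genes fell. In the bin of Tnr and Ncan these were -0.04 and 18.7%. In the bins of Hapln1 and Hapln4 the medians were 0.02 and 0.03, and 8.70% and 7.91% fell. Against the median of their own length bin, the 6 genes differed by -0.31 (Hapln1) to -0.16 (Reln). Bcan differed by -0.08, Ncan by -0.001 and Tnc by 0.04. With the length trend taken out of each library, Vcan, Hapln1, Hapln4, Tnr and Reln were still lower at an adjusted p under 0.05 (limma), and Acan had an adjusted p of 0.0513.

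**Figure D4:**
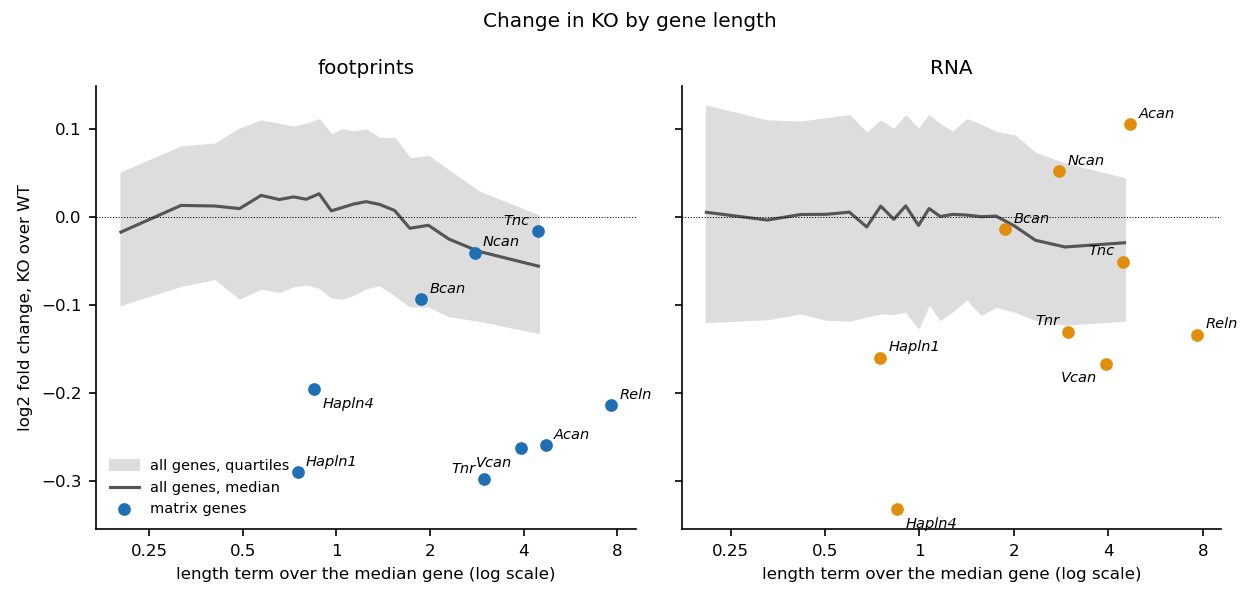
Log2 fold change of KO over WT against the gene length term relative to the median gene (log axis), in footprints and RNA. The line and band are the median and quartiles of all genes in 20 length bins; in footprints 6 of the 9 genes lie below the band at their length, the short Hapln1 among them at -0.29.

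Genes that build, bind, cut or signal through this matrix were grouped in 6 lists, of which 129 of 134 genes were tested in footprints. Of the 129, 61 fell, none rose and 68 did not pass. That is 47.3% lower, against 10.4% lower and 8.15% higher over all genes, with a median of -0.15 against -0.0001. The lists were chosen with earlier results of these data known. The shares over all genes are not matched for gene length, and the share that fell ran from 5.26% to 22.0% over the 20 length bins. In RNA 17 of 128 (13.3%) fell and 1 rose, against 2.77% lower and 2.11% higher over all genes, with a median of -0.10 against -0.005. The RNA count moved with single libraries: 8 without KO replicate 1, 4 without KO replicate 2, 10 without WT replicate 1 and 8 without WT replicate 4. None of the 129 passed in footprints per RNA. The counts of the single lists read against the same shares over all genes. The lists differed among themselves, from 3 of 14 lower for hyaluronan enzymes and other link proteins to 17 of 21 for other proteoglycans, receptors and net partners.

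**Figure D5:**
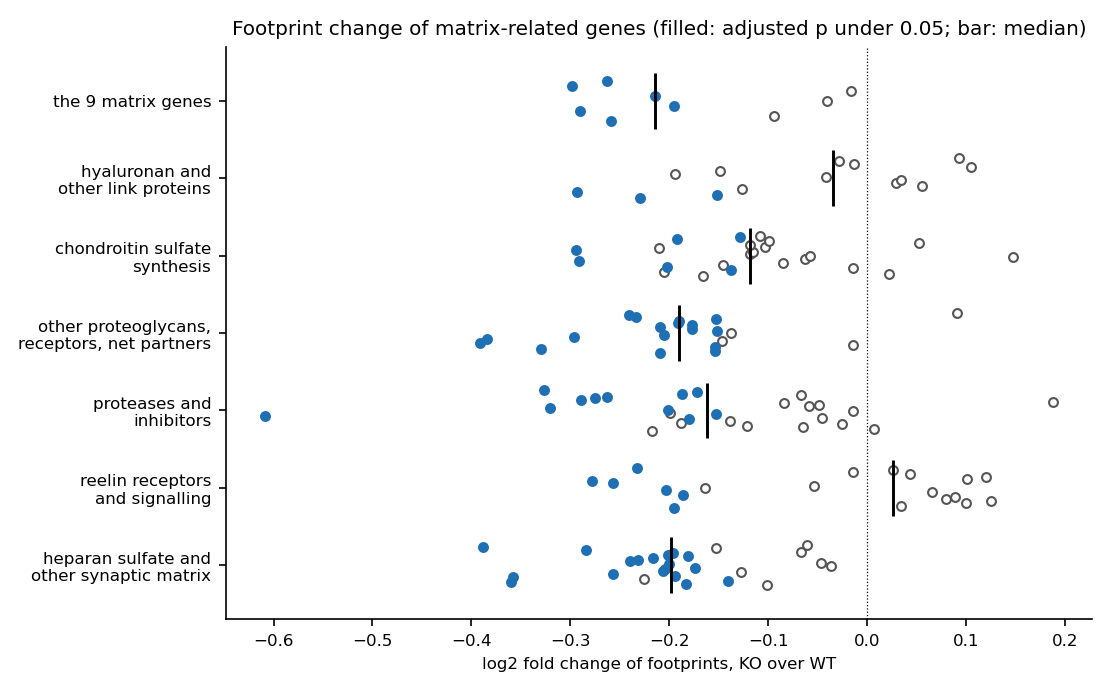
Log2 fold change of footprints, KO over WT, for the 9 genes and the 6 related lists, 1 point per gene. Filled points have an adjusted p under 0.05 and the bar is the list's median, which runs from 0.03 (reelin receptors and signalling) to -0.20 (heparan sulfate and other synaptic matrix); every filled point lies below 0.

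Of other chondroitin sulfate proteoglycans, their receptors and net partners, 17 of 21 fell in footprints (median -0.19) and 6 of 21 in RNA. Cspg4 (NG2, a proteoglycan of oligodendrocyte precursors and pericytes) fell by 0.33 ± 0.05 in footprints, from 10.9 to 8.73 TPM (adjusted p = 0.00184). Nptx1, a neuronal pentraxin that gathers AMPA receptors at synapses, fell by 0.30 ± 0.04, from 630.1 to 516 TPM (adjusted p = 0.00182). Ptn, a growth factor that binds chondroitin sulfate, fell by 0.21 ± 0.03, from 1201 to 1044 TPM (adjusted p = 0.00248), and Itih5, a protein of the family that modifies hyaluronan, fell by 0.39 ± 0.05 (adjusted p = 0.00105). In RNA the smallest p values of this list were those of Nptxr, the pentraxin receptor, at -0.35 ± 0.07 (adjusted p = 0.0157), and Rtn4r, the Nogo receptor that also binds chondroitin sulfate, at -0.27 ± 0.06 (0.0164). The Nptxr call had an adjusted p of 0.0687 without KO replicate 2 and 0.0519 without KO replicate 1. The Rtn4r call had 0.0607 without KO replicate 2, 0.0504 without WT replicate 1 and 0.0587 without WT replicate 4.

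Of the proteases that cut lecticans and their inhibitors, 11 of 26 fell in footprints (median -0.16) and 4 of 25 in RNA. Klk8 (neuropsin, an extracellular serine protease of hippocampal neurons) had the largest change of all the listed genes, from 21.8 to 14.4 footprint TPM (-0.61 ± 0.06, adjusted p = 3.67e-04) and from 56.0 to 34.2 RNA TPM (-0.73 ± 0.09, adjusted p = 0.00131). The other named decreases in footprints were inhibitors: Timp4, an inhibitor of metalloproteinases, fell by 0.33 ± 0.05, and the serpins Serpine2 and Serpini1 by 0.27 ± 0.04 and 0.26 ± 0.04. Adamts4, a lectican-cutting metalloproteinase, fell in RNA by 0.26 ± 0.06 (adjusted p = 0.0291). That call was lost when any of KO replicates 1 and 2 or WT replicates 1, 2 and 4 was left out, with an adjusted p of 0.0651, 0.115, 0.0864, 0.0503 and 0.104. The list thus held decreases both of enzymes that cut the matrix and of proteins that inhibit such enzymes.

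Of the enzymes that build and sulfate chondroitin chains, 6 of 23 fell in footprints (median -0.12) and 2 of 23 in RNA. Chst15, which adds the second sulfate of the E-type unit, fell by 0.29 ± 0.05 in footprints (adjusted p = 0.00362) and by 0.28 ± 0.07 in RNA (0.0261). Chst11, a 4-O-sulfotransferase, fell by 0.20 ± 0.04 in footprints (adjusted p = 0.00684) and by 0.32 ± 0.07 in RNA (0.0218). The RNA calls were not kept without single libraries: for Chst15 the adjusted p was 0.0811, 0.0645, 0.0751 and 0.104 without KO replicates 2 or 3 or WT replicates 3 or 4, and for Chst11 0.0570, 0.0540 and 0.0956 without KO replicates 1 or 2 or WT replicate 4. Ust, a 2-O-sulfotransferase, fell by 0.19 ± 0.04 in footprints (adjusted p = 0.00619). Of hyaluronan enzymes, receptors and other link proteins, Hapln2, Cd44 and Cemip were the 3 that fell (median of 14 genes -0.03). Cd44, a hyaluronan receptor, fell from 10.9 to 9.32 footprint TPM (adjusted p = 0.0312), with an adjusted p of 0.0556 to 0.0947 when any KO replicate or WT replicate 2 or 3 was left out, and of 0.133 with DESeq2. Cemip, a hyaluronan-degrading protein, fell from 15.0 to 13.6 footprint TPM (adjusted p = 0.0371), a call lost with DESeq2 (0.0530), limma on either TPM scale (0.0903 and 0.0897), the length trend removed (0.102) and the replicate sets as a covariate (0.0639). It was also lost without KO replicates 1 or 3 (0.0934 and 0.140) or WT replicates 1, 2 or 3 (0.0565, 0.0640 and 0.0924).

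Reelin's partners were mixed. Both lipoprotein receptors of reelin fell in footprints, Vldlr from 30.0 to 25.7 TPM (-0.23 ± 0.04, adjusted p = 0.00359) and Lrp8 from 11.2 to 9.43 TPM (-0.26 ± 0.07, adjusted p = 0.0266). The Lrp8 call was lost without KO replicate 1 (adjusted p = 0.114, change -0.17), KO replicate 3 (0.0622), WT replicate 2 (0.0619) or WT replicate 4 (0.0628). Nrp1, a semaphorin receptor that joins the reelin receptor complex, fell by 0.28 ± 0.04 (adjusted p = 0.00201). In all 6 of 19 genes of the list fell, but the list's median was 0.03, above that of all genes, and 13 did not pass. In RNA Pafah1b1 (Lis1, a dynein regulator downstream of reelin) was the 1 gene of the 6 lists that rose, from 197 to 230.3 TPM (0.22 ± 0.05, adjusted p = 0.0269), a call lost under 5 of the 7 leave-one-out settings (adjusted p 0.0536 to 0.0884).

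Among heparan sulfate proteoglycans and other synaptic matrix proteins, 18 of 26 fell in footprints (median -0.20) and 4 of 26 in RNA. Lgi1, a secreted synaptic protein, fell from 234 to 204 footprint TPM (-0.20 ± 0.03, adjusted p = 0.00281), Dag1 (dystroglycan) from 90.2 to 79.9 TPM (adjusted p = 0.00447) and the glypican Gpc5 from 51.0 to 42.9 TPM (adjusted p = 0.00368). In RNA, Fn1 (fibronectin, largely vascular in brain) fell from 11.3 to 8.18 TPM (-0.45 ± 0.07, adjusted p = 0.00665) and Thbs4, a thrombospondin, from 22.3 to 17.2 TPM (-0.37 ± 0.07, adjusted p = 0.00999).

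Markers of the cells that make or carry this matrix moved to different degrees, and their part in the results was not tested. Over all genes 10.4% fell and 8.15% rose in footprints and 2.77% and 2.11% in RNA. In bulk slices, fewer cells of a type and less RNA per cell cannot be told apart. Of 12 markers of parvalbumin and other net-bearing interneurons, 5 fell in footprints (Pvalb, Kcnc1, Kcnc2, Syt2 and Erbb4) and none in RNA, and their summed footprints were 817 to 851 TPM in WT and 771 to 791 in KO. Of 12 markers of oligodendrocyte precursors, 4 fell in each assay, with summed RNA of 481 to 534 TPM in WT and 420 to 460 in KO and summed footprints of 426 to 465 and 404 to 434. Of 12 markers of meningeal fibroblasts and mural cells, 7 fell in footprints and 2 in RNA. Their summed footprints were 473 to 538 TPM in WT and 403 to 410 in KO, and their summed RNA 217 to 245 and 189 to 205. Of 11 markers of mature oligodendrocytes, 6 fell and 1 rose in footprints, with overlapping sums. The markers Cspg4 and Xylt1 are also in the matrix lists.

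For astrocytes, reelin-type interneurons, CA2 cells and hippocampal principal neurons the shares that fell were 8.33% to 18.2%, against 10.4% over all genes, and nothing is read from them. Of 14 astrocyte markers 2 fell and 3 rose in footprints, where 10.4% of all genes fell and 8.15% rose. Their summed footprints overlapped (7978 to 8421 TPM in WT, 8152 to 8368 in KO). Of 11 markers of reelin-type interneurons and Cajal-Retzius cells, 2 fell and 1 rose, with overlapping sums, and Lhx1 and Lhx5 were under 2 TPM in both assays. Of 7 markers of CA2 pyramidal cells 1 fell in footprints and none in RNA, and summed RNA was 417 to 485 TPM in WT and 486 to 504 in KO. Of 12 markers of hippocampal pyramidal and granule neurons 1 fell and 1 rose in footprints, and 1 fell and none rose in RNA. The summed RNA of these markers was lower in KO without overlap, at 4757 to 4880 TPM in WT and 4399 to 4725 in KO. Their summed footprints overlapped (4202 to 4438 TPM in WT, 4141 to 4278 in KO). Thalamic neuron markers went further: of 11, none fell and 5 rose in footprints, where 8.15% of all genes rose. In RNA none fell and 4 rose, where 2.11% of all genes rose. Their sums were 255 to 287 TPM in WT and 290 to 294 in KO in footprints, and 184 to 223 and 238 to 260 in RNA. Whether the pools differed in tissue content was not tested. The lowest TPM of every library lay above 0, so no marker could be listed at 0. Of 8 CA2 markers chosen 7 were measured, and of 13 oligodendrocyte precursor markers 12.

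For each of the 9 genes, the genes most like it across the 14 libraries were those with the highest Pearson correlation of log2 TPM centred within each assay, among 10341 or 10342 genes with at least 5 TPM in both assays. These correlations include the difference between genotypes and the libraries' shared scaling, and are a description only. Vcan was closest to Ccnd1 (r = 0.97), a cyclin, Tnr to Tnrc6c (0.96), Hapln1 to Il6st and Pcdh17 (both 0.95), Reln to the teneurins Tenm2 and Tenm4 (0.95 and 0.94) and Hapln4 to Cck (0.95), the neuropeptide cholecystokinin. Bcan was closest to Adam15 (0.90), Acan to AU040320 (0.90), Tnc to Mrps28 (0.85) and Ncan to Slc35f6 (0.84). The genes whose footprints did not pass, Ncan, Bcan and Tnc, had lower best correlations than 5 of the 6 that fell. A genotype difference can by itself raise these correlations, so nothing is read from that order.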

How the data were processed

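Per the submitters' processing notes, the tools named were cutadapt 1.7.1, Trimmomatic 0.32, Bowtie2 2.1.0, TopHat2 2.0.9, SAMtools 0.0.19, bedtools and RSEM 1.2.11, with the mouse build mm10; their roles are not given in the sources used here. The authors deposited estimated counts and TPM for 14459 genes in 14 libraries; 5 of the 19 samples listed are not analysed here. The lowest deposited TPM per library was 0.880 to 1.00, a floor whose source is not given in the sources used here. That lowest value was the same in KO RNA replicates 1 and 2 (0.898) and in WT RNA replicates 1 and 2 (0.947). It was also shared by WT RNA replicates 3 and 4 (0.880) and by WT footprint replicates 1 and 2 (1.00). TPM summed to between 1.008e+06 and 1.014e+06 per library. An adjustment of the values before deposit is possible and was not tested. Estimated counts of 20 to 50 varied less than counting alone would give (variance over mean 0.589 to 0.638 in RNA, 0.292 to 0.304 in footprints), so p-values may be too small and no counting intervals are given.

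Counts were rounded and tested with edgeR 4.0.16 in R 4.3.3 (minimum count of 10 in filterByExpr, TMM, quasi-likelihood F-test with robust dispersions, p-values adjusted over all genes by Benjamini-Hochberg), KO against WT within each assay; each SE is the size of the log2 fold change divided by the root of its F value. Footprints per RNA were tested as a genotype by assay interaction in a fit of all 14 libraries, with no term for the shared lysate. The gene length term is the gene's ratio of estimated count to TPM. Alternatives were DESeq2 1.42.0, limma 3.58.1 on log2(TPM + 1) and log2(TPM + 0.1), voom, other scaling and filtering, a replicate block, a length trend removed, other fits and leaving out each library; 1 more, replicates 1 and 2 against the rest as a covariate, was added after the data were seen. The fits were tried on simulated counts, drawn with more spread than counting alone and without the floor. That trial therefore cannot show whether the error rate holds at the low spread of the deposited counts. Named list genes are up to 4 per list with the smallest footprint p and up to 2 with the smallest RNA p among those that passed. The 9 genes, the lists and the tests were chosen with earlier results of these data known. Gene positions and promoters are from RefSeq (GRCm38.p6).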

Additional observations from a re-analysis of the deposited data

How the results depend on the processing

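The footprint decreases of Vcan, Hapln1, Tnr and Reln kept their direction and their adjusted p under 0.05 in all 17 alternatives, with highest adjusted p of 0.0439, 0.0144, 0.0109 and 0.0350. The number of the 9 genes lower in footprints was 4 (without KO replicate 1) to 6, and no alternative called any of them in footprints per RNA. Same-numbered KO and WT libraries did not deviate together (correlations -0.49 to 0.09), and the replicate numbers were not taken as pairs of genotypes. An adjustment before deposit could have removed a shared deviation, so these correlations cannot show that the libraries were unpaired. Same-numbered RNA and footprint libraries of a genotype, which the ratios pair, deviated together weakly or not at all (correlations -0.08 to 0.25). Whether they share a lysate could not be checked from the values. With the replicate block the 9 genes held 5 decreases in footprints (Acan lost, adjusted p = 0.0741) and 0 in RNA (Hapln4 lost, 0.0528), and the related lists 47 decreases in footprints and 7 decreases and 0 increases in RNA. Of the listed genes named in the text, the block lost the footprint calls of Ust (0.0575), Cd44 (0.0593), Hapln2 (0.0741) and Cemip (0.0894), and the RNA calls of Rtn4r (0.0563), Pafah1b1 (0.0824), Adamts4 (0.121), Chst15 (0.121) and Chst11 (0.139). Limma on log2(TPM + 1) lost the RNA calls of Pafah1b1 (0.0513), Adamts4 (0.0672) and Chst15 (0.0714), and log2(TPM + 0.1) those of the same genes (0.0511, 0.0661 and 0.0698). The replicate sets as a covariate lost Chst15 (0.0521), Adamts4 (0.0586) and Pafah1b1 (0.0664). Leaving out 1 library gave 0 to 1 of the 9 genes lower in RNA, 4 to 20 listed genes lower in RNA, 0 to 2 higher in RNA and 0 to 2 higher in footprints. Listed genes higher in footprints numbered 2 with DESeq2, with limma on either TPM scale and with the length trend removed, and 3 with voom, in place of 0. Listed genes lower in RNA numbered 11 with limma on either TPM scale and 11 with the replicate sets as a covariate, in place of 17. Those higher in RNA, 1 in edgeR, numbered 2 with DESeq2, voom, the length trend removed or 1 fit over both assays, and 0 with limma on either scale or the replicate sets. Changes near 0 turned sign: Tnc footprints to 0.037 with the replicate block and 0.042 with the length trend removed, and from -0.098 to 0.043 with 1 library left out. With 1 library left out, Bcan RNA ran from -0.081 to 0.040, Hapln2 RNA from -0.031 to 0.138 and Hapln3 footprints from -0.197 to 0.0028. Tnc footprints per RNA turned to -0.025 with voom and ran from -0.062 to 0.094 with 1 same-numbered pair of libraries left out. The cause of these shifts was not tested. Depth limits the scarcest genes most, Acan having 125 estimated counts in its lowest RNA library.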
